A study of Homo sapiens with 6 samples.

Results

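The 55 genes described here carry cells through mitosis, and were selected by symbol for their function. Earlier results of these data were known when they were chosen. They comprise mitotic kinases and cyclins, the proteolysis machinery of anaphase, the spindle checkpoint, centromere and kinetochore proteins, kinesins, condensin, and factors of cytokinesis, and were sorted into 11 groups by role. All 55 were found by symbol among the 62700 genes of the deposited tables, and all 55 passed the expression filter of a mean of at least 1 TPM, which left 14020 genes. The deposited unit, TPM, divides by gene length and by the sum of the library, so that levels of different genes in a library can be set side by side.

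The samples were 6 libraries of SK-Hep-1, a human liver tumor line that the study describes as of endothelial origin. The study made them to ask how *RAB30-DT* acts, and analysed gene expression and splicing. Genes of the cell cycle and of embryonic development were enriched among the splicing differences it reports. It also reports a check of the knockdown in SK-Hep-1 cells by qPCR. In these cells it further reports that the knockdown reduced colony formation, invasion, migration and proliferation. None of this was examined here. The 3 control libraries are titled shControl, although their genotype label reads WT, and the 3 knockdown libraries are titled shRAB30-DT and carry a short hairpin RNA against the long non-coding RNA *RAB30-DT*. In the study's methods, hairpins were delivered with pLKO.1 lentivirus, and stable lines were selected with puromycin. The labels do not say which hairpin against *RAB30-DT* the libraries carry, nor that replicates came from separate cultures, so that p-values measure the spread between these libraries, which may be technical.

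*RAB30-DT* itself, on the plus strand of chromosome 11 (hg38, 83072052 to 83107789), was measured in control replicates 1, 2 and 3 at 18.16, 11.51 and 13.91 TPM and in the knockdown libraries at 11.94, 10.85 and 6.5 TPM. The ranges overlapped, since knockdown replicate 1 lay above control replicate 2, although with the dependence of each library on GC content removed (described below) they did not. With 14.5 ± 3.37 against 9.76 ± 2.88 TPM (SD, n = 3 each), the difference on the log2 scale was −0.55 with a standard error of 0.27 (limma, adjusted p = 0.355), and a two-sided exact permutation test gave p = 0.2, where 3 libraries against 3 cannot go below 0.1. Leaving out knockdown replicate 3 moved the difference to −0.30, and over the libraries left out it ranged from −0.70 to −0.30. The depth of the libraries is unknown, because TPM keep no read number. Of the 10 hepatocyte markers examined, *ALB*, *APOB*, *TTR*, *HNF4A* and *CYP3A4* were at 0 in every library and only *SERPINA1* had a mean above 1 TPM, while none of 10 endothelial markers had such a mean. All 8 mesenchymal markers did, led by *VIM* with means of 3882.6 TPM in control and 4614.7 TPM in knockdown cells. The list did not move one way, since *SPARC*, the next in abundance, was lower without overlap, with means of 1496.6 and 1220.3 TPM, and *TWIST1* had means of 26.5 and 18.7 TPM. Of the immune markers, *PTPRC* and *CD3E* were at 0 throughout and *CD68* alone had a mean above 1 TPM. Summed levels were 19.2 to 25.4 TPM in control and 28.5 to 37.3 TPM in knockdown cells for the hepatocyte list, 0.72 to 3.62 and 1.15 to 2.45 TPM for the endothelial, 5370 to 5560 and 5680 to 6140 TPM for the mesenchymal, and 28.6 to 66.9 and 107 to 129 TPM for the immune list, and their part in the differences below was not tested.

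In a dividing cell, CDK1 bound to cyclin B starts mitosis, and Aurora and Polo-like kinases build the spindle and prepare the chromosomes for attachment. The spindle checkpoint holds anaphase until every kinetochore is attached, after which the anaphase-promoting complex, with CDC20, has securin and cyclin B degraded, and separase cuts the cohesin that joins sister chromatids. Most of these genes are transcribed late in the cell cycle, under the MuvB complex with B-MYB and FOXM1, and their RNA is low in cells that are not about to divide. In bulk RNA, fewer cells in this phase and less RNA per such cell cannot be told apart.

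Mean levels of all 55 genes were lower in knockdown than in control cells, whereas 53.7% of all tested genes had a log2 fold change below 0. Their log2 fold changes ran from −1.05 for *AURKA* to −0.06 for *CDC25B*, with a median of −0.36 against −0.04 over all tested genes. *AURKA* was the only member that fell at an adjusted p under 0.05 (limma, Benjamini-Hochberg over 14020 genes), 1 of 55 where 0.670% of tested genes did so, and none rose, where 0.371% of tested genes did. In either direction 1.04% of tested genes were called, and 1 call is too few to set the list apart from these shares. At an unadjusted p under 0.05 there were 18 members, all lower, against 9.70% of tested genes. In 23 members every knockdown library lay below every control library, against 13.4% of tested genes, and in none did every knockdown library lie above, against 9.89%. The genes share libraries and are transcribed together, so these counts describe the list and are not 55 separate observations. The same holds for the counts by role below.

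**Figure D1:**
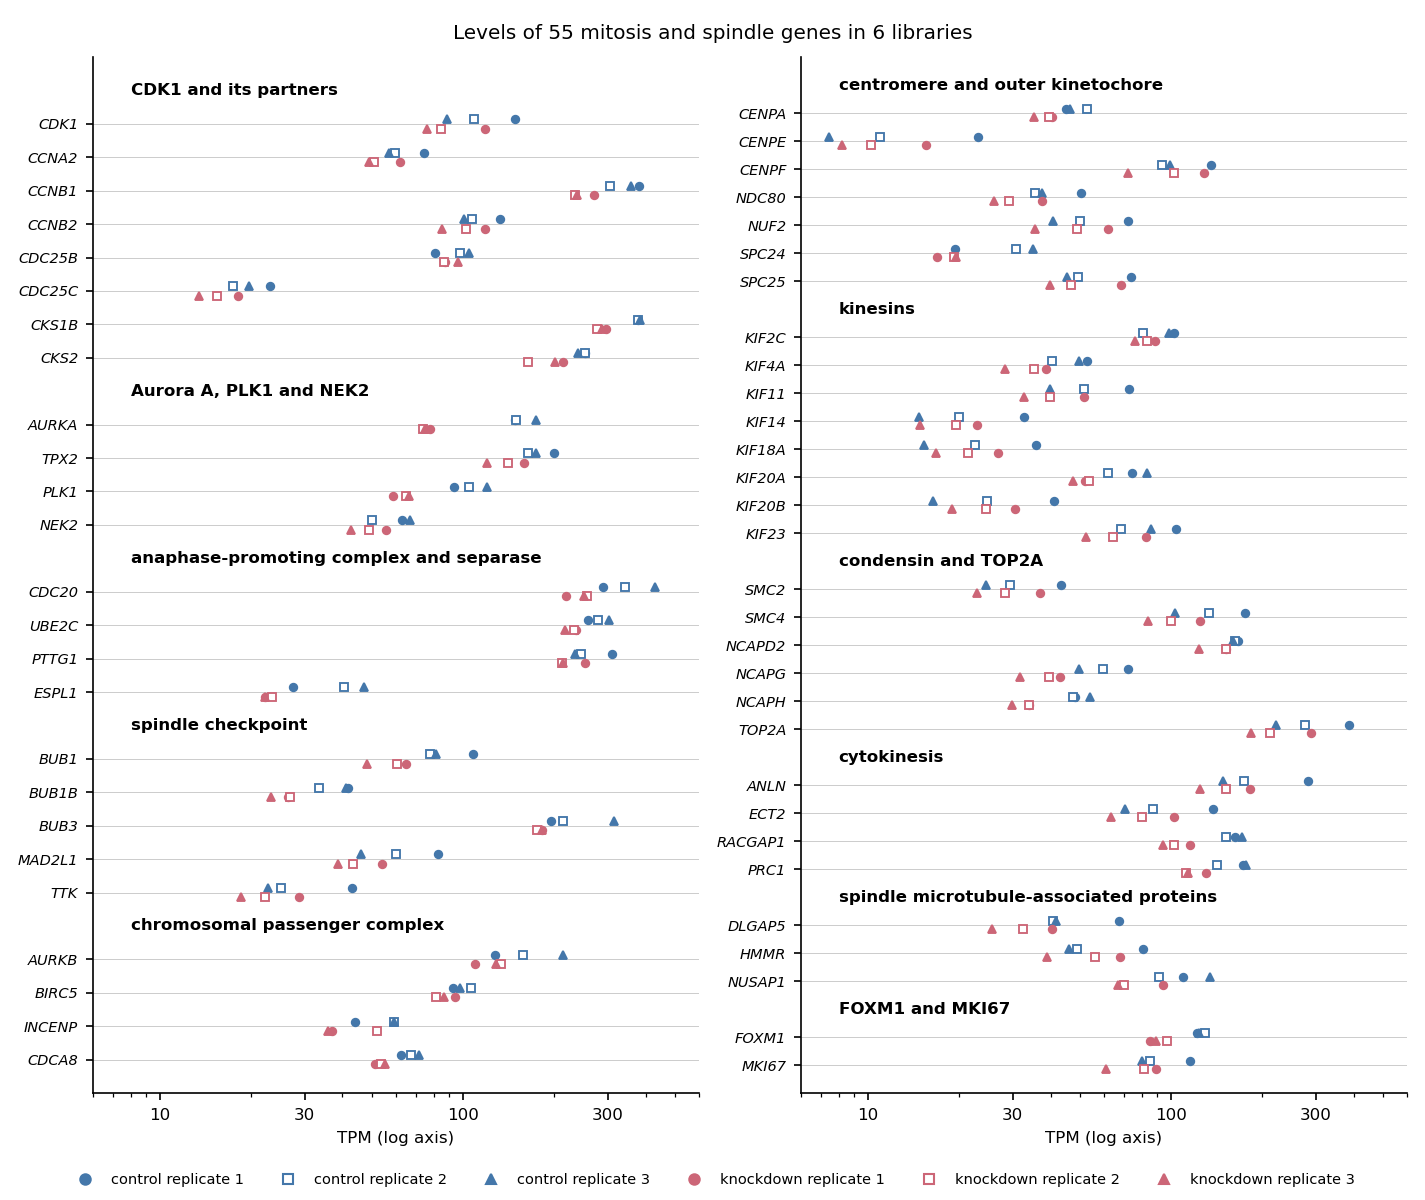
Level of each of the 55 genes in TPM on a log axis, by role, with control libraries in blue and knockdown libraries in red and a symbol for each replicate number. *AURKA* stands out by the gap between its lowest control value of 148.79 TPM and its highest knockdown value of 77.5 TPM, while in the kinesins *KIF14*, *KIF18A* and *KIF20B* control replicate 3 lies below the knockdown range.

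Together the 55 transcripts made up 0.673, 0.585 and 0.617% of all TPM in the control libraries and 0.526, 0.470 and 0.434% in the knockdown libraries. The summed level did not overlap between groups, at 5851.3 to 6731.1 TPM in control and 4343.8 to 5259.5 TPM in knockdown cells. The highest library was a control for all 55 members, namely control replicate 1 for 34, replicate 2 for 4 and replicate 3 for 17, where 28.5, 15.1 and 20.3% of tested genes were highest in these libraries. The lowest was knockdown replicate 3 for 36 members, against 18.8% of tested genes, knockdown replicate 2 for 8, knockdown replicate 1 for 6, and a control library for the remaining 5. In the values as deposited, the downward direction of the weaker members rested on the libraries at the ends. There 45 of 55 were lower without control replicate 1 and 47 without knockdown replicate 3, with medians of −0.24 and −0.26. Quantile normalization gave 52 lower members and a median of −0.20, and limma weights for each library gave 53, with *CENPF* and *HMMR* higher under both and *CDC25B* under the first.

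**Figure D2:**
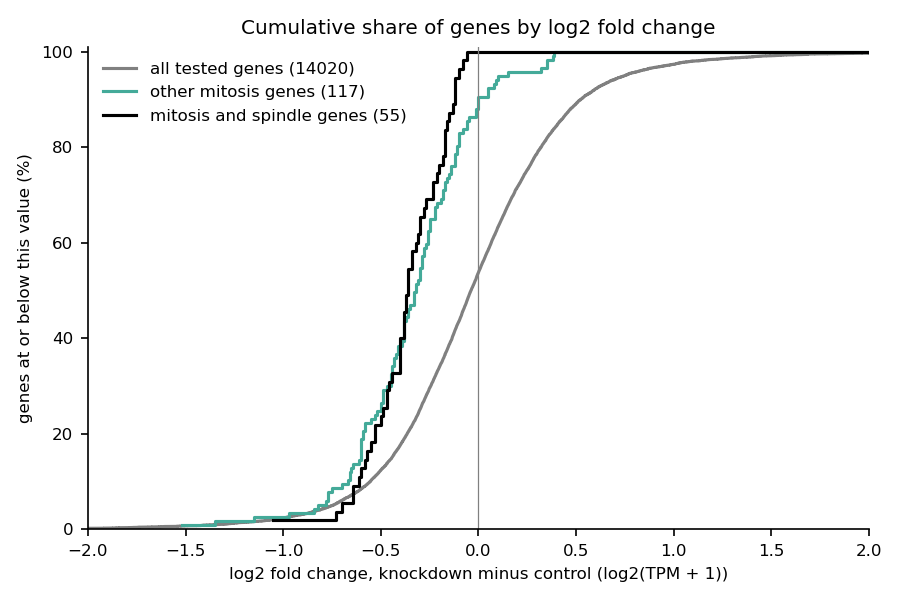
Cumulative share of genes (%) by log2 fold change, knockdown minus control on the log2(TPM + 1) scale, for all 14020 tested genes in grey, 117 other mitosis genes in green and the 55 genes in black. The black curve reaches its top below 0, with a median of −0.36, where all tested genes have a median of −0.04.

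Part of the spread between libraries followed base composition. Genes poor in GC were high in control replicate 1 and knockdown replicate 1, and genes rich in GC in control replicate 3 and knockdown replicate 3. Across the 55 genes, Spearman's rho between exonic GC content and the deviation from the gene's mean was −0.85, 0.46 and 0.74 in the control libraries and −0.74, 0.02 and 0.60 in the knockdown libraries. Over all tested genes it was −0.61, 0.29, 0.49, −0.52, 0.02 and 0.34 in the same order. These are descriptions across genes, which share each library and its composition. The 55 genes were poorer in GC than tested genes as a whole, with a median of 43.5% against 48.0%.

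**Figure D3:**
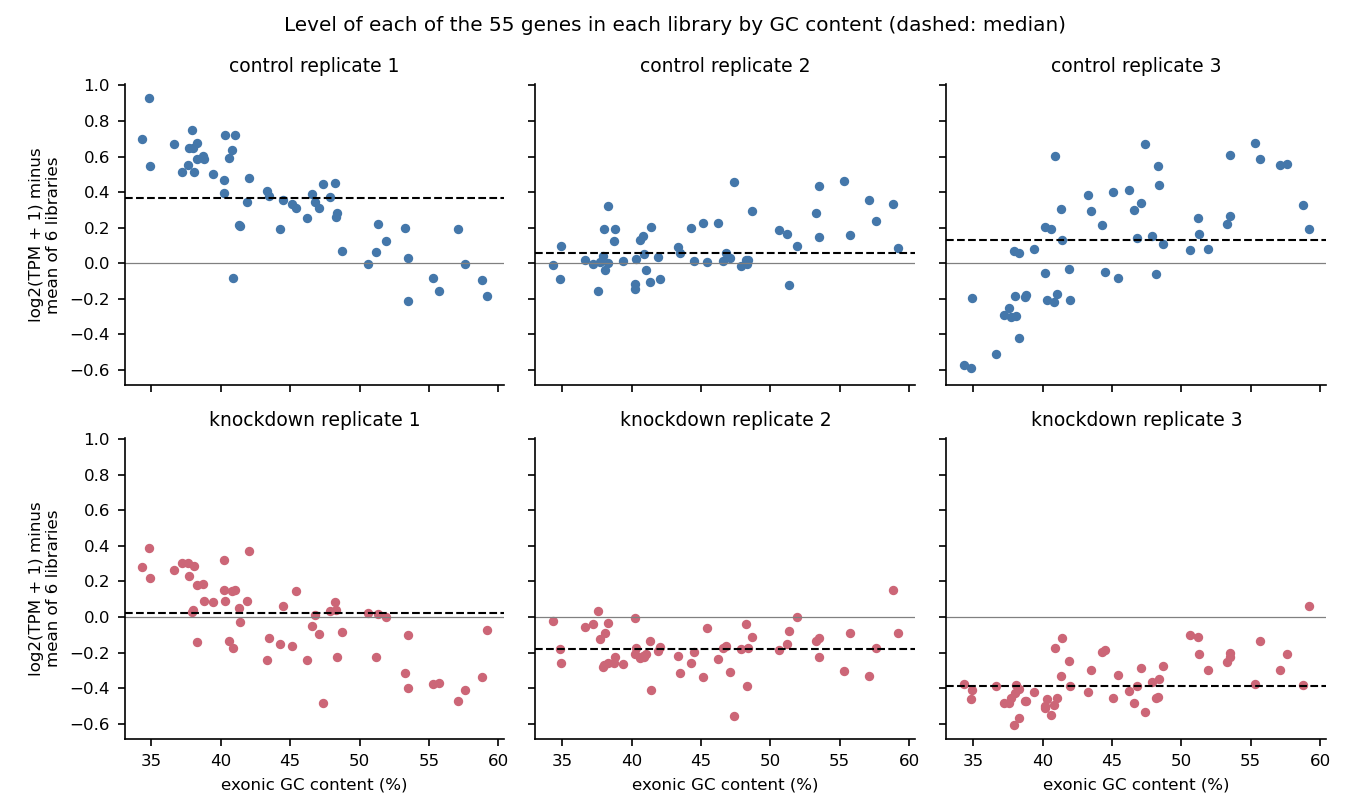
Deviation of each of the 55 genes from its mean over the 6 libraries, on the log2(TPM + 1) scale, against its exonic GC content (%), in a panel for each library with the median dashed. The points slope down in control replicate 1 and knockdown replicate 1, slope up in both replicates 3, and in knockdown replicate 3 lie almost entirely below 0.

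Removing each library's trend with GC content, an alternative to the analysis of the values as deposited, left the median at −0.38 and 54 of 55 genes lower, where 51.7% of tested genes were, the exception being *CDC25B* at 0.01. With each library left out in turn as well, 54 or 55 of the 55 genes were lower. Over all 6 libraries, the standard error was smaller for 50 of the 55. Then 12 members passed an adjusted p under 0.05, all lower, where 4.69% of tested genes did so in that direction, 3.80% in the other and 8.50% in all: *AURKA*, *PLK1*, *CDC20*, *ESPL1*, *BUB1*, *MAD2L1*, *SMC4*, *NCAPG*, *NCAPH*, *RACGAP1*, *DLGAP5* and *FOXM1*. These passes depended on single libraries: with the trend removed, limma called none of the members without knockdown replicate 1 or 2, where 27 and 24 had an unadjusted p under 0.05, *AURKA* alone passed without knockdown replicate 3, and *AURKA*, *PLK1* and *DLGAP5* passed without control replicate 2. Without control replicate 1, *CDC20*, *SMC4*, *DLGAP5* and *FOXM1* no longer passed. These limits apply to the passes of members with the GC trend removed that are given by gene below. The groups did not overlap for 36 members, against 18.3% of tested genes. Of the 30 members under 45% GC, 8 were without overlap as deposited and 19 after removal, and 0 and 5 were called. Of the 25 members of at least 45% GC, 15 and 17 were without overlap, and 1 and 7 were called. Over all tested genes, of any GC content, 13.4 and 18.3% were lower without overlap, and 0.670 and 4.69% were called lower. Shares of tested genes within these GC classes were not counted, so the split describes the members only. The origin of the trend was not tested.

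Late cell cycle genes are known for a pair of short promoter elements. The cell cycle genes homology region (CHR), with the letters TTTGAA or TTCGAA, lies close to the start and binds MuvB, and CCAAT boxes upstream of it bind NF-Y. RefSeq promoters (GRCh38.p14, 250 bases before to 50 after the start, read 5′ to 3′ on the gene's strand) were at hand for 47 of the 55 members, the others being *AURKA*, *TPX2*, *UBE2C*, *BUB3*, *TTK*, *BIRC5*, *RACGAP1* and *FOXM1*. On either strand, TTTGAA or TTCGAA lay between 60 bases before and 40 after the start in 29 of 47 members (61.7%), against 3.16% of the 10093 promoters of tested genes and 5.25% of all 27305. CCAAT lay on either strand anywhere in 36 members (76.6%), against 37.0% of tested genes and 35.7% of all. The letters of CCAAT and of a CHR can share at most 1 base, and TTCGAA is its own reverse complement. A CHR near the start together with CCAAT was found in 23 members (48.9%) and in 1.57% of tested genes. Of 98 promoters of the other mitosis genes (described below), 30.6% had a CHR near the start, 51.0% CCAAT and 18.4% both.

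The 30-base windows below show the CHR letters in capitals for some of the members with the 2 largest changes in their group. Others of these, such as *NUSAP1* and *NDC80*, also hold a CHR near the start and are not shown. The windows let the spacing and the shared flanks be read. Positions count from the start, with the base before it at −1.
PLK1: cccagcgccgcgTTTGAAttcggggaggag
CKS1B: gcgggcggcgtgTTTGAAagcgaggccaaa
ESPL1: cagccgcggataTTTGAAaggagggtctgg
BUB1B: gggaccgttaaaTTTGAAacttggcggcta
KIF4A: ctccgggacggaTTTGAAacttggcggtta
NCAPG: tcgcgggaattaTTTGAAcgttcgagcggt
PRC1: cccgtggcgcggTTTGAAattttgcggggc
BUB1: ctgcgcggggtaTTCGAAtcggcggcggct
DLGAP5: cggtgcggcaagTTTGAAtttcgtggaggc
In *PLK1* (chr16:23678848-23678877, plus strand) the motif begins at −29, in *CKS1B* (chr1:154974639-154974668, plus) at −30, in *ESPL1* (chr12:53268256-53268285, plus) at −31, in *NCAPG* (chr4:17810932-17810961, plus) at −35 and in *KIF4A* (chrX:70290058-70290087, plus) at −34. It begins at −23 in *BUB1B* (chr15:40161034-40161063, plus) and at −20 in *PRC1* (chr15:90994538-90994567, minus), but just inside the transcribed part in *BUB1* (chr2:110678045-110678074, minus) and *DLGAP5* (chr14:55191565-55191594, minus), at 2 and 4. *BUB1B* and *KIF4A* share the bases acttggcgg after the motif.

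CCAAT boxes are shown for *PLK1*, which has both elements, and for *CCNB1* and *KIF20A*, which hold no CHR letters in the 300 bases, again with the motif in capitals (ATTGG where it lies on the opposite strand).
PLK1 at −73: aaatccccgcggCCAATcagtggcgcgcag
CCNB1 at −87: gaccggcagccgCCAATgggaagggagtga
CCNB1 at −55: gccacgaacaggCCAATaaggagggagcag
KIF20A at −94: ttccttacgcggATTGGtagctgcaggctt
KIF20A at −67: cttccctatctgATTGGccgaacgaacgca
These lie at chr16:23678804-23678833 in *PLK1*, chr5:69167051-69167080 and chr5:69167083-69167112 in *CCNB1*, and chr5:138179006-138179035 and chr5:138179033-138179062 in *KIF20A*, all on the plus strand. The 29 members with a CHR near the start had a median log2 fold change of −0.37, with 12 lower without overlap. The 18 members without it in that window had a median of −0.32, with 5 lower without overlap. For the 8 members without a promoter entry these were −0.37 and 6. Over all tested genes 13.4% were lower without overlap, and a link between the CHR and the differences was not tested. No match says only that these letters are not in this window.

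**Figure D4:**
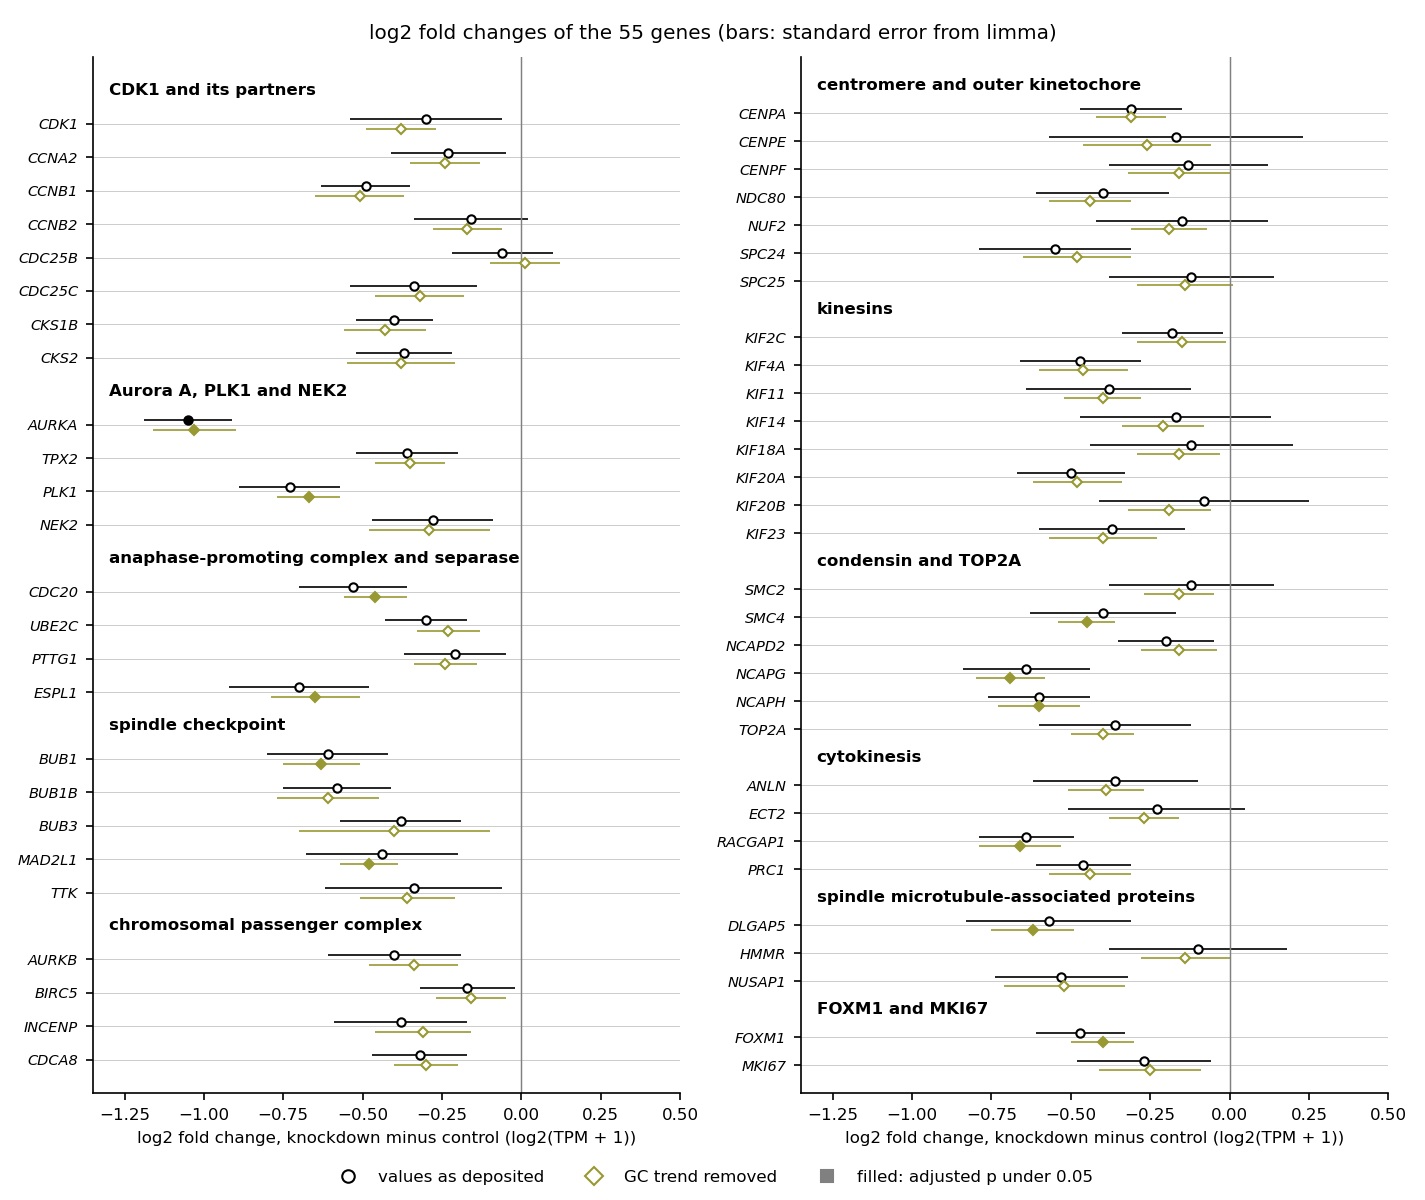
log2 fold change of each of the 55 genes, knockdown minus control on the log2(TPM + 1) scale, by role, with the standard error from limma as a bar. Black circles are the values as deposited and olive diamonds those with the GC trend removed, filled where the adjusted p was under 0.05, which is *AURKA* alone among the circles and 12 genes among the diamonds.

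*AURKA* encodes Aurora A, the kinase that matures centrosomes and builds the spindle poles, and lies on the minus strand of chromosome 20 (hg38, 56369389 to 56392337). The control libraries held 148.79, 149.62 and 173.91 TPM in the order of their numbers, and the knockdown libraries 77.5, 73.6 and 74.97 TPM. Every control library thus lay far above the 3 knockdown libraries, which were within a few TPM of each other. *AURKA* fell from 157.4 ± 14.3 to 75.4 ± 1.98 TPM (SD, n = 3 each), to 0.479 of the control mean, with a log2 fold change of −1.05 (standard error 0.14, adjusted p = 0.0252). The call held with the GC trend removed (−1.03, adjusted p = 0.00901). As deposited it was lost when control replicate 2 or any knockdown replicate (1, 2 or 3) was left out, with adjusted p of 0.119, 0.101, 0.153 and 0.133 at log2 fold changes of −1.08 to −1.03, and without the filter on low values (adjusted p = 0.0535). A fold change as low as that of *AURKA* was found for 2.03% of all tested genes.

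Aurora A needs *TPX2* to be activated and held on spindle microtubules, and *TPX2* moved less. *TPX2* was at 200.12, 163.82 and 174.34 TPM in control and 158.75, 140.66 and 119.99 TPM in knockdown cells, which did not overlap (log2 fold change −0.36, adjusted p = 0.313). *AURKA* RNA per *TPX2* RNA was 0.744, 0.913 and 0.998 in the control libraries and 0.488, 0.523 and 0.625 in the knockdown libraries, without overlap. Relative to the median of the other 54 genes in the same library, *AURKA* was higher by 0.77, 1.03 and 1.10 on the log2 scale in control and by 0.19, 0.24 and 0.48 in knockdown cells, and these did not overlap either. These ratios were formed after the values were seen, with the largest change of the list as numerator, and were not tested. Of other ratios formed, some were apart, as *CCNB1* per *CCNB2*. Others overlapped, as *BUB1* per *BUB3*, *SPC24* per *SPC25* and *ESPL1* per *PTTG1*.

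*PLK1*, the Polo-like kinase that acts from mitotic entry to cytokinesis, was at 93.61, 104.76 and 120.25 TPM in control and at 58.61, 64.79 and 66.31 TPM in knockdown cells. The groups did not overlap, and the log2 fold change of −0.73 (standard error 0.16) missed the threshold as deposited (adjusted p = 0.0808) and passed it with the GC trend removed (−0.67, adjusted p = 0.0157). *NEK2*, which drives centrosome separation, completed this group with 59.9 ± 8.83 against 49.1 ± 6.61 TPM (SD, n = 3 each) and overlapping libraries.

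Of the 8 genes of *CDK1* and its partners, 3 were lower without overlap, against 13.4% of tested genes, and none passed the test. *CCNB1*, encoding cyclin B1 and the most abundant cyclin of the list, was at 379.67, 304.41 and 359.18 TPM in control and at 269.73, 234.89 and 237.30 TPM in knockdown cells. Each knockdown library was below each control library, with a log2 fold change of −0.49 (standard error 0.14, adjusted p = 0.151, and 0.0624 with the GC trend removed). *CKS1B*, a small subunit that binds cyclin-dependent kinases, had the tightest libraries of the group, at 376.76, 378.88 and 383.69 TPM in control and 297.30, 275.75 and 288.03 TPM in knockdown cells. It had a log2 fold change of −0.40, with a standard error of 0.12 (adjusted p = 0.151), and its paralog *CKS2* had −0.37 and likewise no overlap. *CDK1*, *CCNA2*, *CCNB2*, *CDC25B* and *CDC25C* overlapped between groups, with log2 fold changes from −0.34 to −0.06. Within libraries *CCNB1* was 2.55, 2.81 and 4.06 times *CDK1* in control and 2.29, 2.78 and 3.13 times in knockdown cells, which overlapped.

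The machinery of anaphase had 4 members, of which 3 were lower without overlap, against 13.4% of tested genes. *ESPL1*, encoding the protease separase, was at 27.41, 40.57 and 47.16 TPM in control and at 22.20, 23.43 and 22.19 TPM in knockdown cells. Its knockdown libraries were nearly equal while control replicate 1 lay well below the other two control libraries, for a log2 fold change of −0.70 (standard error 0.22, adjusted p = 0.169). *CDC20*, the activator of the anaphase-promoting complex, was at 289.51, 342.04 and 428.77 TPM in control and 218.65, 256.82 and 251.24 TPM in knockdown cells, without overlap (log2 fold change −0.53, adjusted p = 0.185). Both passed with the GC trend removed, at adjusted p of 0.0373 and 0.0399. *UBE2C*, the ubiquitin-conjugating enzyme of that complex, had −0.30 without overlap, and *PTTG1*, encoding securin, −0.21 with overlap.

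All 5 spindle checkpoint genes were lower, 3 of them without overlap, against 13.4% of tested genes, and none passed as deposited. *BUB1*, a checkpoint kinase at kinetochores, was at 107.62, 77.99 and 81.47 TPM in control and 64.66, 60.46 and 48.32 TPM in knockdown cells. *BUB1B*, encoding the inhibitor BUBR1, was at 41.83, 33.41 and 41.13 TPM in control and 26.39, 26.83 and 23.16 TPM in knockdown cells. For both the groups were apart, with log2 fold changes of −0.61 (adjusted p = 0.172) and −0.58 (adjusted p = 0.152), and with the GC trend removed *BUB1* passed (adjusted p = 0.0271) and *BUB1B* did not (adjusted p = 0.0538). *BUB3*, the partner that carries both to kinetochores and the most abundant of the group, was at 180.4 ± 3.81 TPM (SD, n = 3) in knockdown cells against 241.0 ± 63.9 TPM (SD, n = 3) in control cells, where replicate 3 alone reached 313.98 TPM. Its log2 fold change of −0.38 became −0.18 without that library. *MAD2L1* and *TTK* overlapped, with −0.44 and −0.34, and *MAD2L1* passed with the GC trend removed (−0.48, adjusted p = 0.0272).

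The chromosomal passenger complex places Aurora B at centromeres and later at the midzone of the spindle. Of its 4 genes, *CDCA8* alone was lower without overlap, where 13.4% of tested genes were. *CDCA8* was at 67.1 ± 4.41 against 53.4 ± 2.12 TPM (SD, n = 3 each). *AURKB* was at 126.98, 157.90 and 213.21 TPM in control and 109.18, 132.97 and 128.66 TPM in knockdown cells, and *INCENP*, the scaffold, at 43.87, 59.30 and 59.06 against 36.95, 52.10 and 35.79 TPM. Their ranges overlapped, with log2 fold changes of −0.40 (adjusted p = 0.382) and −0.38 (adjusted p = 0.414), neither of which passed with the GC trend removed, and that of *AURKB* became −0.20 without control replicate 3. *AURKA* RNA per *AURKB* RNA was 1.17, 0.948 and 0.816 in control and 0.71, 0.554 and 0.583 in knockdown libraries, without overlap.

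The 7 centromere and outer kinetochore genes differed least, with a median of −0.17. Only *CENPA*, the centromeric histone, was lower without overlap, where 13.4% of tested genes were. *SPC24* and *NDC80* encode subunits of the complex that grips microtubule ends. *SPC24* was at 19.31, 30.77 and 34.88 TPM in control and 16.89, 19.15 and 19.44 TPM in knockdown cells, where control replicate 1 fell within the knockdown range (log2 fold change −0.55, adjusted p = 0.298). *NDC80* was at 41.2 ± 8.10 and 31.0 ± 5.88 TPM (SD, n = 3 each), with −0.40 (adjusted p = 0.388), which became −0.25 without control replicate 1. The other subunits *NUF2* and *SPC25* had −0.15 and −0.12, and *CENPE*, a motor at the kinetochore with 7.43 to 23.13 TPM in control cells, had −0.17. *CENPF*, a large coat protein of the kinetochore and the most abundant of the group, was at 135.58, 92.96 and 98.99 TPM in control and 128.64, 102.32 and 72.00 TPM in knockdown cells. Its sign depended on the processing, since −0.13 became 0.03 without control replicate 1, 0.09 without knockdown replicate 3, 0.01 with quantile normalization and 0.04 with library weights.

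Kinesins move and shape spindle microtubules, and 2 of the 8 members, *KIF20A* and *KIF4A*, were lower without overlap, against 13.4% of tested genes. *KIF20A*, which acts in the central spindle and cleavage furrow, was at 74.36, 61.72 and 83.08 TPM in control and 52.02, 53.76 and 47.49 TPM in knockdown cells (log2 fold change −0.50, adjusted p = 0.199). *KIF4A*, a chromosome-bound kinesin, was at 52.75, 40.35 and 49.47 TPM against 38.61, 35.36 and 28.27 TPM (−0.47, adjusted p = 0.271). The most abundant, the microtubule depolymerase *KIF2C*, was at 93.9 ± 11.6 and 82.6 ± 6.38 TPM (SD, n = 3 each) and overlapped, and its log2 fold change of −0.18 became −0.11 without control replicate 1 and −0.28 without control replicate 2. *KIF14*, *KIF18A* and *KIF20B*, with 34.3 to 38.3% GC, had log2 fold changes from −0.17 to −0.08 with standard errors of 0.30 to 0.33.

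Condensin I compacts mitotic chromosomes, with the ATPases *SMC2* and *SMC4* shared with condensin II and the subunits *NCAPD2*, *NCAPG* and *NCAPH* of its own. *NCAPG* was at 71.84, 59.78 and 49.57 TPM in control and 43.07, 39.63 and 31.75 TPM in knockdown cells, and *NCAPH* at 48.21, 47.33 and 53.87 against 33.86, 33.96 and 29.92 TPM. Neither overlapped, and their log2 fold changes of −0.64 (adjusted p = 0.168) and −0.60 (adjusted p = 0.121) passed with the GC trend removed (adjusted p = 0.0166 and 0.0359). Ratios between subunits, formed after the values were seen and not tested, were taken within each library. Those given have the 2 largest changes of the group as numerators. *NCAPG* per *SMC2* was 1.65, 2.04 and 2.03 in control and 1.16, 1.40 and 1.39 in knockdown libraries, and *NCAPH* per *NCAPD2* was 0.291, 0.292 and 0.336 against 0.223, 0.224 and 0.242, both without overlap, where *NCAPD2* shares its locus with the abundant *MRPL51*. *SMC2* and *NCAPD2* had log2 fold changes of −0.12 and −0.20. *TOP2A*, the topoisomerase that untangles sister chromatids, was at 386.16, 275.97 and 221.89 TPM in control and 288.65, 211.86 and 182.72 TPM in knockdown cells and overlapped, with −0.36 (adjusted p = 0.502), which became −0.15 without control replicate 1, −0.21 without knockdown replicate 3 and −0.54 without control replicate 3 or knockdown replicate 1.

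Cytokinesis was represented by 4 genes. *RACGAP1* and *KIF23* encode the centralspindlin complex at the spindle midzone, and *RACGAP1* was at 162.99, 151.21 and 170.93 TPM in control and 115.09, 101.85 and 93.80 TPM in knockdown cells. All control libraries lay above, with a log2 fold change of −0.64 (standard error 0.15, adjusted p = 0.0911), which passed with the GC trend removed (−0.66, adjusted p = 0.0271). Its partner *KIF23*, listed with the kinesins, had −0.37 with overlap. *PRC1*, which bundles antiparallel microtubules, was at 172.85, 141.95 and 176.25 TPM against 130.08, 112.02 and 113.78 TPM, without overlap (−0.46, adjusted p = 0.195). *ANLN*, the anillin of the contractile ring, spread from 148.06 to 282.46 TPM in control and from 124.06 to 182.20 TPM in knockdown cells and overlapped, as did *ECT2* (−0.23). Its log2 fold change of −0.36 became −0.09 without control replicate 1, −0.22 without knockdown replicate 3 and −0.55 without control replicate 3.

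Among spindle microtubule-associated proteins, *DLGAP5*, a substrate of Aurora A, was at 67.11, 40.69 and 41.60 TPM in control and 40.31, 32.39 and 25.57 TPM in knockdown cells. The groups were apart by less than 1 TPM, with a log2 fold change of −0.57 (adjusted p = 0.308) that became −0.34 without control replicate 1, and it passed with the GC trend removed (adjusted p = 0.0349). *NUSAP1* was at 109.70, 91.20 and 134.28 TPM against 94.05, 69.69 and 66.74 TPM and overlapped (−0.53, adjusted p = 0.248). *HMMR* had −0.10. *FOXM1*, the transcription factor of late cell cycle genes, was at 121.72, 129.17 and 123.58 TPM in control and 85.07, 96.62 and 88.92 TPM in knockdown cells. Its libraries were tight and apart, with a log2 fold change of −0.47 (standard error 0.14, adjusted p = 0.154), and it passed with the GC trend removed (−0.40, adjusted p = 0.0466). *MKI67*, the proliferation marker Ki-67, was at 115.13, 84.96 and 80.27 TPM against 89.01, 81.54 and 60.92 TPM and overlapped (−0.27, adjusted p = 0.549), with −0.11 without control replicate 1 and likewise without knockdown replicate 3.

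A further 117 genes of mitosis, all of which passed the filter, were counted from the same fit. Of these, 104 were lower and 13 higher, where 53.7% of tested genes were lower, and the median was −0.32. At an unadjusted p under 0.05, 33 were lower, against 9.70% of tested genes, and none was higher. Without overlap, 39 were lower, against 13.4% of tested genes, and 1, *ANAPC10*, was higher, against 9.89%. *ANAPC15*, a subunit of the anaphase-promoting complex that helps to release the checkpoint, was the only called gene, 1 of 117 where 0.670% of tested genes were called lower, which is a share near that of all genes. It was at 60.13, 52.34 and 75.8 TPM in control and 20.14, 18.23 and 25.16 TPM in knockdown cells, and fell with a log2 fold change of −1.52 (standard error 0.21, adjusted p = 0.0252). Its call, like that of *AURKA*, was lost without control replicate 2 and without each knockdown replicate (adjusted p from 0.0869 to 0.153), and without the filter (adjusted p = 0.078). The 15 genes listed with the complex, namely its subunits, *ANAPC15* included, and its ubiquitin-conjugating enzyme *UBE2S*, had a median of −0.25, with 12 lower and 3 higher.

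The 3 subunits particular to condensin II were lower without overlap, against 13.4% of tested genes. They, *ANAPC10*, *UBE2S*, *PDS5B* and *MYBL2* were named after their values were seen. *NCAPD3* was at 51.6 ± 1.57 and 30.1 ± 3.36 TPM (SD, n = 3 each), *NCAPG2* at 74.2 ± 12.6 and 48.6 ± 5.32 TPM, and *NCAPH2* at 60.3 ± 27.3 and 32.6 ± 1.86 TPM, with log2 fold changes of −0.77, −0.59 and −0.77 (adjusted p = 0.075, 0.166 and 0.255). The loci of *NCAPD3* and *NCAPH2* overlap *VPS26B* (mean 33.1 TPM) and *SCO2* (mean 31.2 TPM). Strand was not stated for the counting, so the values of *NCAPD3* and *NCAPH2* are uncertain. The 13 genes of cohesin and its regulators had a median of −0.22, with 11 lower, 2 higher and none without overlap. With the GC trend removed 6 of the 13 were lower without overlap, against 18.3% of tested genes, and *PDS5B*, a regulator of cohesin, was called (−0.70, adjusted p = 0.0226, and −0.58 with adjusted p = 0.31 as deposited). Of the 5 genes of MuvB and B-MYB, *MYBL2*, which encodes B-MYB, was at 90.39, 111.81 and 143.9 TPM in control and 63.48, 70.48 and 78.84 TPM in knockdown cells, without overlap (−0.67, adjusted p = 0.152), and the group's median was −0.17.

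The sequence GAGTGAA, held by 11 of the 19 annotated transcripts of *RAB30-DT* and chosen with earlier results known, was absent from the 3′UTR of the canonical transcript of all 55 genes, against 12.5% of the 11539 tested genes whose 3′UTR had 50 bases or more. The 3′UTRs of the 55 genes were short, with a median of 768 bases against 1338, and among tested genes under 1500 bases the share was 3.8%, where 46 of the 55 genes belong. It occurred in 9 of the 117 further mitosis genes. The absence says only that these letters are not in those 3′UTRs, since the rest of the transcripts was not searched.

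Close copies of these genes were at low levels. The most abundant copies, the pseudogenes *CKS1BP3* and *CDC20P1*, had means of 7.79 and 7.22 TPM, *AURKAP1* had 0.915 TPM, and *KIF4B*, *PTTG2* and *PTTG3P* were at or near 0. In 10 members another gene with a mean of at least 10 TPM overlaps the locus. Strand was not stated for the counting, so the values of *NCAPD2* (beside *MRPL51* at 172.0 TPM), *KIF4A* (*PDZD11* at 94.5 TPM), *KIF20A* (*BRD8* at 64.0 TPM) and *FOXM1* (*RHNO1* at 70.0 TPM) are uncertain, and likewise those of *CCNA2*, *CDC25C*, *CENPA*, *SPC24*, *SMC4* and *NUSAP1*.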

How the data were processed

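Poly-A RNA of 6 SK-Hep-1 samples was sequenced, 3 control and 3 knockdown, grouped by title. The authors trimmed reads with fastp (v0.23.2), aligned them with STAR (v2.7.10b), sorted them with samtools (v0.1.9) and ran RSEM (v1.3.0). Per gene, the authors deposited TPM, rounded to 2 decimals. The labels name HISAT2 (2.0.5) as aligner, and hg38. The methods name GENCODE Release 45, whereas all 62700 identifiers were those of Release 44, which gave names, positions and exonic GC content here. Depth and counting error cannot be had from TPM.

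Values were analysed as log2(TPM + 1) with limma 3.58.1 in R 4.3.3 (lmFit, eBayes with trend, two-sided), with no block for replicates. Genes entered at a mean of 1 TPM or more (14020 genes), and p-values were adjusted by Benjamini-Hochberg over these. Fold changes on this scale understate those of low genes. limma's test is a model fitted across all genes and was tested on simulated data. There the noise of each gene was drawn independently, so genes that vary together, as those transcribed together do, were not covered. Where a GC trend was simulated, it was the same in both groups and the gene noise was smaller. A trend that differs between the groups was thus not covered either. Named were the called members, in each of 11 groups by role the 2 members with the largest change and the most abundant, RAB30-DT, and called genes among 117 further mitosis genes. Members, lists, motifs and windows were chosen with earlier results of these data known. Genes named beyond the rule, with ratios within libraries, were chosen after their values were seen.

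Alternatives were median-of-ratios scaling and quantile normalization, pseudocounts of 0.1 and 5, a stricter filter (mean of 5 TPM or more) or none, eBayes without trend or robust, limma's arrayWeights (gene-by-gene), a replicate block, removal, per library, of the loess trend (span 0.3) of values on GC content with and without the block, and each library left out. After the data were examined, GC removal with median-of-ratios scaling and with each library left out was added. Promoters were RefSeq's, and motifs were searched in Python 3.11.15 on both strands. Splicing was not analysed here.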

Additional observations from a re-analysis of the deposited data

How the results depend on the processing

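As deposited, 1 of the 55 members, 146 of all tested genes and 1 of the 117 other mitosis genes were called at an adjusted p under 0.05. Without the filter on low values these were 0, 13 and 0, with arrayWeights 19, 3218 and 34, with the replicate block 6, 861 and 12, after removal of the GC trend 12, 1191 and 15, with both of the last 8, 1028 and 16, and with the GC trend removed after median-of-ratios scaling, added after seeing the data, 12, 1156 and 15. With each library left out in turn they ranged from 0 to 3, from 12 to 489 and from 0 to 7. With the GC trend removed as well, also added after seeing the data, they ranged from 0 to 14, from 92 to 1656 and from 0 to 20 (10, 1125 and 16 without control replicate 1, and 3, 279 and 4 without control replicate 2). No member was called by limma without control replicate 2 or without knockdown replicates 1, 2 or 3, where 16, 18, 12 and 10 had an unadjusted p under 0.05, and 21 had one without the filter. With the GC trend removed there was none without knockdown replicate 1 or 2, where 27 and 24 had one. arrayWeights gave control replicate 2 and knockdown replicate 2 weights of 3 and 4.39 and the other libraries at most 0.948. Leaving libraries out lowers the number of samples, and the cause of the other shifts was not tested. Pseudocounts, the stricter filter, quantile normalization, median-of-ratios scaling and eBayes without trend or robust kept these counts within 1.5 times. The 146 calls were 52 higher and 94 lower, but 60 and 69 with median-of-ratios scaling and 78 and 83 with quantile normalization.

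*CENPF* turned from −0.13 to 0.01 with quantile normalization, to 0.04 with arrayWeights, to 0.03 without control replicate 1 and to 0.09 without knockdown replicate 3, with −0.32 to 0.09 over the libraries left out. The median of the 55 genes stayed between −0.44 and −0.20, and *RAB30-DT* between −0.70 and −0.24 without passing the threshold.

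The groups share replicate numbers, but nothing says that a number marks a shared batch. Deviations of same-numbered libraries correlated across genes at 0.41, 0.036 and 0.279, and those of differently numbered libraries at −0.355 to 0.111. With the GC trend removed, the same-numbered values were 0.187, 0.016 and 0.118. Neither set of values establishes pairs. The replicate block called *AURKA*, *BUB1*, *CCNB1*, *NCAPG*, *PLK1* and *RACGAP1*. Added to the removal of the GC trend, the block called *CCNB1* (adjusted p = 0.0454) and ended the calls of *NCAPH*, *DLGAP5*, *CDC20*, *FOXM1* and *ESPL1* (adjusted p = 0.0505 to 0.0615). The precision rests on 3 libraries per group, as depth is unknown.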
